A study of Homo sapiens with 16 samples.

Results

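The 9 genes described here encode FOXO factors and proteins that carry the insulin receptor signal: the receptors INSR and IGF1R, the receptor substrates IRS1 and IRS2, the phosphoinositide 3-kinase (PI3K) subunits PIK3CA and PIK3R1, and the transcription factors FOXO1, FOXO3 and FOXO4. They are 9 of the 33937 human genes in a table of read counts, chosen by name with the count values of these 16 libraries in view, over all groups and with no threshold and no single contrast. The adjusted p-values below therefore place each gene in a fit over all genes and are no independent support for the set.

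When insulin or an insulin-like growth factor binds its receptor, the receptor kinase phosphorylates IRS proteins on tyrosine, and these recruit PI3K through the SH2 domains of its regulatory subunit. PI3K makes the lipid that activates AKT. AKT then phosphorylates FOXO factors, which bind 14-3-3 proteins and leave the nucleus. In the fasted state unphosphorylated FOXO factors switch on genes of stress resistance, cell cycle arrest, autophagy and apoptosis, and IRS2 and INSR themselves are known FOXO targets in several tissues.

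The cells were HCT116, a human colorectal carcinoma line that is known to carry an activating PIK3CA mutation. Both stable lines held a doxycycline-inducible short hairpin RNA, a scrambled control in SCR and a hairpin against the histone N-terminal acetyltransferase NAA40 in NAA40-KD. Each line was cultured in serum-containing medium for 96 h with 1 μg/ml doxycycline (dox) or without it. The 4 groups of 4 RNA-seq libraries are named by line and dox label, as in SCR (-dox) or NAA40-KD (+dox). The hairpin should act only under dox, and whether a line was 1 clone is not given in the sources used here. Nothing in the labels ties the 4 libraries of a group to separate cultures, so p-values measure the spread between these RNA samples. Library totals ran from 11065606 to 13855486 counts.

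NAA40 itself ran against the dox labels. Levels are given in CPM, counts scaled to library size. NAA40 stood at 11.8 ± 1.94 CPM (SD, n = 4) in NAA40-KD (-dox), against 29.4 ± 3.63 in SCR (-dox), 30.3 ± 1.59 in NAA40-KD (+dox) and 27.4 ± 1.45 in SCR (+dox). The libraries labelled NAA40-KD (-dox) thus held 40.2% of the SCR (-dox) level (p = 0.0286 by a two-sided exact permutation test, which can go no lower with these group sizes), and those labelled NAA40-KD (+dox) held 111% of the SCR (+dox) level (exact permutation test p = 0.0571). In the table of read counts, the columns of the (-dox) libraries are named wDox and those of the (+dox) libraries Dox. The letters wDox can be read as with or without dox, and whether the labels are exchanged was not tested. Groups are named by their sample titles and treatment labels throughout, and every direction below holds for the libraries so labelled. The library labelled NAA40-KD (-dox) replicate 4 stood apart: its genes deviated from the group mean by a median of 0.579 on the log2 scale, against 0.205 to 0.222 in the other 3 of its group and 0.064 to 0.163 in the other 12 libraries. Its mitochondrial genes took 5.03% of counts, against 6.42% to 14.3% elsewhere. Values without it are given beside the counts of calls and the main results that include it. Epithelial markers were high in all 16 libraries (EPCAM 257 to 397 CPM). Of the markers of the intestinal lineage, CDX2 held 16.81 to 31.45 CPM, but VIL1 and CDH17 did not exceed 0.273 and 0.837 CPM. The 8 epithelial markers together summed to 5137 to 11090 CPM in NAA40-KD (-dox) and to 3813 to 5508 CPM in the other groups. The part of these shifts in the results was not tested. Of 8 markers of other cell types, PTPRC, CD3E, CD68, PECAM1 and COL1A2 did not exceed 0.304 CPM, while COL1A1 ranged from 56.7 to 195 CPM, ACTA2 from 2.30 to 9.22 and DES from 4.60 to 11.7. ACTA2, a smooth muscle and myofibroblast actin, held 5.97 to 9.22 CPM in the 4 NAA40-KD (-dox) libraries and at most 4.00 in the other 12, and IRS2 and FOXO4 were highest in the same 4 libraries. Its part in those results was not tested.

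Promoter sequence is shown for IRS2, the gene with the largest single difference among the 9, and for 3 short matches to motifs named below. The windows are those of RefSeq on GRCh38.p14, with 250 bases before and 50 after a start, on the strand of the gene. The 9 genes have 15 such windows. Capitals mark GTAAACA, a forkhead motif, CAAAACA, the core of an insulin response sequence, or CACGTG, an E-box, each searched on both strands. The motifs do not overlap in these windows. The first line is the 250 bases before the IRS2 start, and the others carry a match with the bases on each side:
IRS2, chr13:109786584-109786833, minus strand: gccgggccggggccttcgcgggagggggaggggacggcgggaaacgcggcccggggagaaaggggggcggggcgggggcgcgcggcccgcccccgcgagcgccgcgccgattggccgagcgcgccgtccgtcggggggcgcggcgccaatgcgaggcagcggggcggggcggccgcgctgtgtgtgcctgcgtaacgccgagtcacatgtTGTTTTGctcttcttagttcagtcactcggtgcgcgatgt
PIK3CA, chr3:179148198-179148224, plus strand: gttcgttgttTGTTTACacgatgtgag
FOXO4, chrX:71095864-71095890, plus strand: ccggcgagtgGTAAACAgagacgtcag
IRS1, chr2:226799771-226799795, minus strand: gaggctccgtCACGTGtttttctcc
The IRS2 window holds the insulin response core as TGTTTTG, its reverse complement, beginning 40 bases before the start. Forkhead letters stand in the windows of PIK3CA and FOXO4, and the E-box in that of IRS1, and the other 5 genes hold none of these letters in their windows. Of all 35116 windows, 3.42% hold the forkhead letters, 4.92% the insulin response core and 7.26% the E-box. A match describes the letters only.

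Per kilobase of exon, the scale on which genes can be compared with each other, IRS1 was the most abundant of the 9 in every group and FOXO3 the second. In SCR (-dox) the order ran from IRS1 at 47.8 ± 4.76 CPM per kb through FOXO3 at 10.5 ± 0.153, INSR at 7.51 ± 0.499, FOXO4 at 4.45 ± 0.224, FOXO1 at 4.27 ± 0.128 and PIK3CA at 3.28 ± 0.325 to IRS2 at 2.30 ± 0.288, PIK3R1 at 2.26 ± 0.238 and IGF1R at 2.04 ± 0.136 (SD, n = 4). Neighbours in that order differed by more than their summed SDs, apart from FOXO4 and FOXO1 and apart from IRS2, PIK3R1 and IGF1R. In the libraries labelled NAA40-KD (-dox) IRS2 ranked 4, at 8.46 ± 1.69 CPM per kb, within the SDs of INSR at 9.32 ± 0.701 and FOXO4 at 7.88 ± 1.99. PIK3R1 was last there, at 1.18 ± 0.331 CPM per kb. In NAA40-KD (+dox) IRS1 had the first place still, at 26.4 ± 1.60 CPM per kb, and PIK3R1 the last, at 1.92 ± 0.138.

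**Figure D1:**
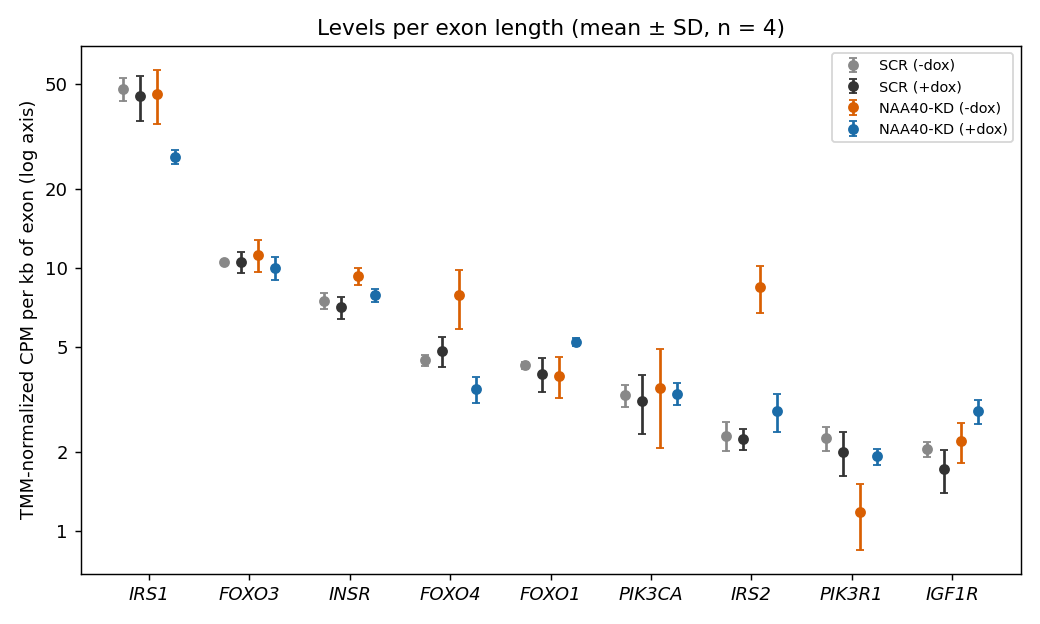
Levels of the 9 genes in TMM-normalized CPM per kilobase of exon, on a log axis, as the mean and SD of 4 libraries in each of the 4 groups. IRS1 lies highest in all groups, and the NAA40-KD (-dox) mean of IRS2 (8.46) stands apart from its other means (2.24 to 2.85).

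Comparing the lines under each dox label asks how the hairpin lines differ in these genes. In NAA40-KD against SCR under the (-dox) label, IRS2 and FOXO4 were higher and PIK3R1 lower, 3 of the 9 genes called at an adjusted p under 0.05 by edgeR's quasi-likelihood test, where 6.42% of all 13903 genes tested were called (2.88% higher and 3.54% lower). Without NAA40-KD (-dox) replicate 4, 6 of the 9 were called, where 36.5% of all genes were. With any other of the 8 libraries left out, only IRS2 stayed called, in fits whose share of all genes called is not given here. In these bulk libraries, a change in the share of cells that make an RNA and a change in RNA per cell cannot be told apart. With an absolute log2 fold change above 1 also required, IRS2 alone of the 9 was left, where 3.47% of all genes were. The median log2 fold change of the 9 was 0.10, against 0.04 over all genes tested. In NAA40-KD against SCR under the (+dox) label, 5 of the 9 genes were called, where 24.5% of 13869 genes were (10.9% higher and 13.7% lower): IGF1R, FOXO1 and IRS2 were higher, and IRS1 and FOXO4 lower. The same 5 were those under an unadjusted p of 0.05, where 37.2% of all genes were. None of them passed the fold limit, where 2.15% of all genes did, and the largest was IRS1, at -0.77 on the log2 scale.

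Comparing the dox labels within a line asks what the label itself goes with. Between SCR (+dox) and SCR (-dox), edgeR's quasi-likelihood test called 0 of the 9 genes and 0 of 13882 genes in all. At an unadjusted p under 0.05 it called 0 of the 9 and 1.95% of all genes, and DESeq2 and limma-voom called 0 of the 9 too. None of the 9 had groups without overlap there, where 1.58% of all genes did. Between NAA40-KD (+dox) and NAA40-KD (-dox), 3 of the 9 were called, all lower: IRS2, FOXO4 and IRS1, where 10.2% of 13844 genes were called (4.71% higher and 5.50% lower). Of these, IRS2 and FOXO4 passed the fold limit too, where 3.99% of all genes did, and 5 of the 9 had groups that did not overlap, where 29.7% of all genes did. Without NAA40-KD (-dox) replicate 4 all 9 were called, where 52.4% of all genes were. The difference between the 2 line differences, an interaction term over all 16 libraries, was called for IRS2, FOXO4 and PIK3R1, where 9.22% of 14392 genes were called (4.31% higher and 4.91% lower). IRS2 and FOXO4 passed the fold limit as well, where 4.49% of all genes did. Without replicate 4 that count was 6 of 9, where 24.2% of all genes were called. The 5 comparisons share libraries, so their values are given side by side for each gene and not counted against each other.

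**Figure D2:**
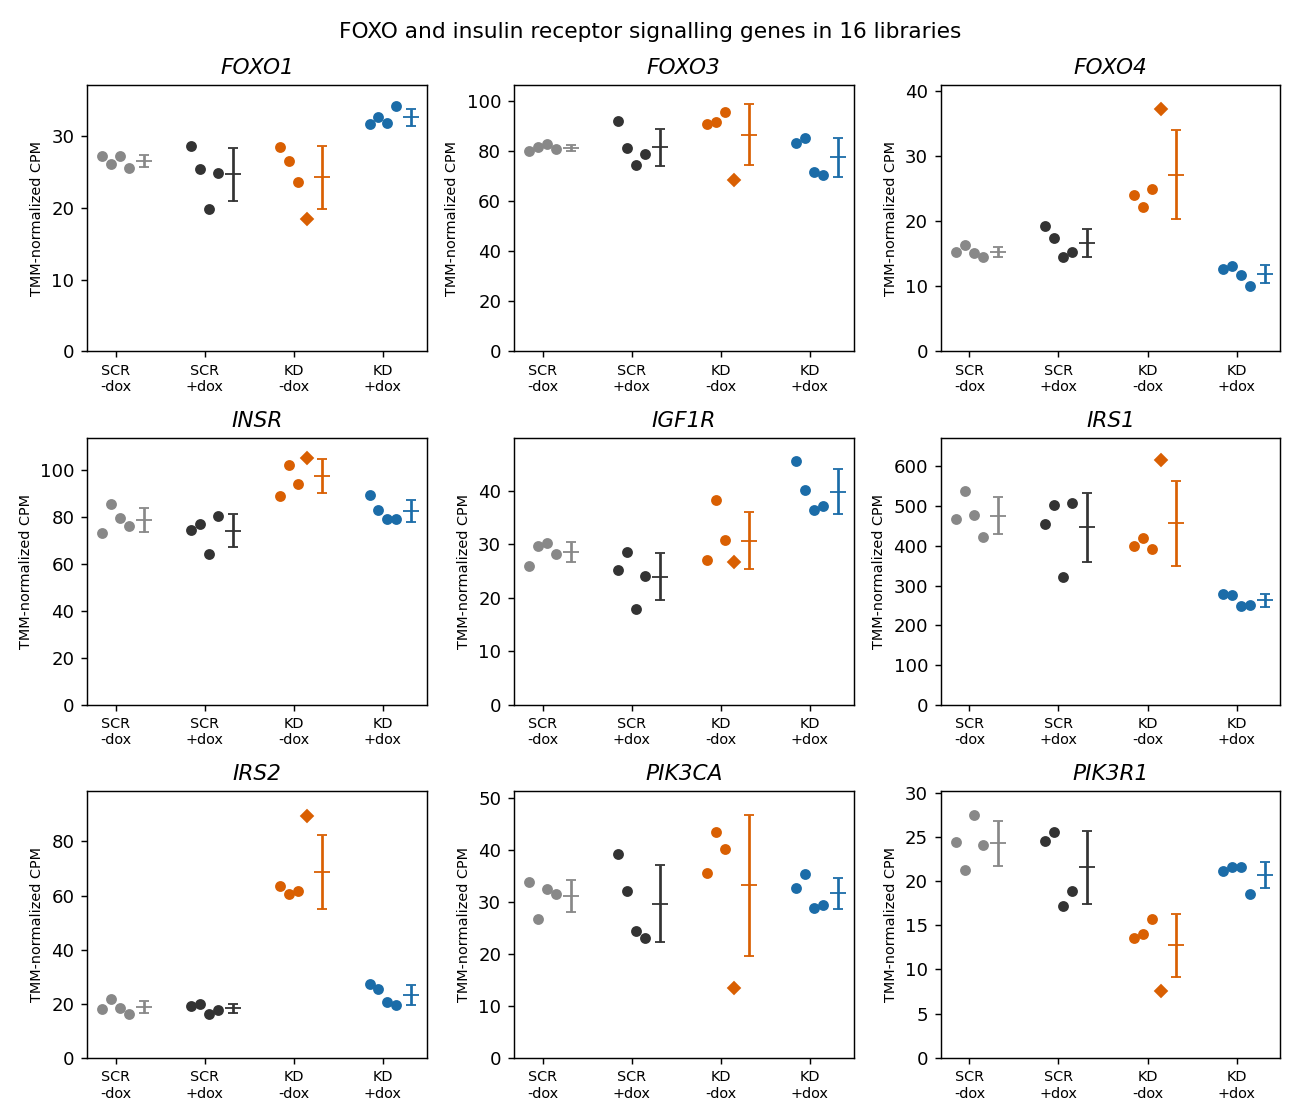
TMM-normalized CPM of the 9 genes in each of the 16 libraries (points; diamond, NAA40-KD (-dox) replicate 4), with the mean and SD of each group of 4 beside them. All 4 NAA40-KD (-dox) libraries lie above the other 12 for IRS2 and FOXO4 and below them for PIK3R1.

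The receptors stand first in the pathway, and neither was called under the (-dox) label over all 8 libraries. INSR (ENSG00000171105, 19:7112255-7294034, minus strand, GRCh38), the insulin receptor, held 73.2 to 85.3 CPM in SCR (-dox), 64.3 to 80.5 in SCR (+dox), 88.8 to 105 in NAA40-KD (-dox) and 78.9 to 89.1 in NAA40-KD (+dox). All 4 NAA40-KD (-dox) libraries lay above all 4 SCR (-dox) libraries, as the groups of 21.8% of all genes did without overlap. Their log2 fold change was 0.32 (SE 0.136 and adjusted p = 0.188), and without replicate 4 it was 0.27 (adjusted p = 0.0231). Under the (+dox) label the INSR groups overlapped, with a log2 fold change of 0.15 (adjusted p = 0.231).

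IGF1R (ENSG00000140443, 15:98648539-98964530, plus strand), the receptor for insulin-like growth factors, was higher in NAA40-KD (+dox). Its 4 libraries there held 45.6, 40.1, 36.4 and 37.1 CPM, and those of SCR (+dox) held 25.3, 28.5, 18.0 and 24.0 CPM. These groups did not overlap, which held for 27.0% of all genes in this comparison. NAA40-KD exceeded SCR by a log2 fold change of 0.73 (SE 0.126 and adjusted p = 0.000431), and IGF1R stayed called with each of the 8 libraries left out. In SCR (-dox) IGF1R held 26.0, 29.8, 30.1 and 28.2 CPM, and in NAA40-KD (-dox) 27.1, 38.3, 30.8 and 26.6. These groups overlapped, and the log2 fold change of 0.11 was not called (adjusted p = 0.715). The change of the IGF1R line difference between the labels, 0.63 on the log2 scale, was not called over 16 libraries (adjusted p = 0.0735) and was called without replicate 4 (0.56, adjusted p = 0.0280). As a ratio of levels per kilobase, INSR to IGF1R was 3.67 ± 0.143 in SCR (-dox), 4.19 ± 0.527 in SCR (+dox), 4.32 ± 0.719 in NAA40-KD (-dox) and 2.77 ± 0.127 in NAA40-KD (+dox).

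The receptor substrates differed between the lines in unlike ways, and within NAA40-KD both were lower in the (+dox) libraries. IRS2 (ENSG00000185950, 13:109752698-109786568, minus strand), a docking protein that links the receptors to PI3K, held 63.7, 60.6, 61.8 and 89.3 CPM in the libraries labelled NAA40-KD (-dox). It held 18.1, 21.9, 18.6 and 16.3 CPM in SCR (-dox), 19.0, 19.97, 16.2 and 17.8 in SCR (+dox), and 27.5, 25.3, 20.7 and 19.5 in NAA40-KD (+dox). The lowest NAA40-KD (-dox) library stood above the highest of the other 12 libraries, and replicate 4 was the highest of all. Against SCR (-dox), IRS2 had a log2 fold change of 1.89 (SE 0.188 and adjusted p = 0.00238), 3.70-fold, which was rank 9 of the 13903 genes by p. Without replicate 4 it was 1.73 (SE 0.104 and adjusted p = 4.04e-08), and it stayed called with each of the 8 libraries left out.

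Under the (+dox) label IRS2 was 1.27-fold higher in NAA40-KD, a log2 fold change of 0.34 (SE 0.123 and adjusted p = 0.0479). Those groups overlapped, and the call was lost with 6 of the 8 libraries left out, where the log2 fold change ran from 0.26 to 0.43. Within NAA40-KD, IRS2 was lower in the (+dox) libraries, by 1.57 on the log2 scale (log2 fold change -1.57, SE 0.186 and adjusted p = 0.00279), and by a log2 fold change of -1.43 without replicate 4 (adjusted p = 1.97e-11). The interaction was -1.53 (SE 0.219 and adjusted p = 0.000457), and -1.39 without replicate 4. Of the exon bases of IRS2, 115 are shared with the antisense gene AL162497.1, and whether counting used the strand is not given in the sources used here.

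IRS1 (ENSG00000169047, 2:226731317-226799759, minus strand), the other widely expressed docking protein, was lowest in the libraries labelled NAA40-KD (+dox), with 278, 276, 247 and 251 CPM. It held 456, 502, 321 and 509 CPM in SCR (+dox), and 468, 538, 476 and 423 in SCR (-dox). SCR (+dox) replicate 3 was the lowest of the SCR libraries and still above all 4 of NAA40-KD (+dox). NAA40-KD against SCR gave a log2 fold change of -0.77 (SE 0.118 and adjusted p = 0.000154), and it stayed called with each of the 8 libraries left out.

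In the libraries labelled NAA40-KD (-dox) IRS1 held 399.5, 419.7, 391 and 615 CPM, so replicate 4 lay above every other library of the study and the other 3 below all of SCR (-dox). Against SCR (-dox) the log2 fold change was -0.05 (SE 0.180 and adjusted p = 0.899), and without replicate 4 it was -0.24 (SE 0.0921 and adjusted p = 0.0497). Within NAA40-KD, IRS1 was lower in the (+dox) libraries (log2 fold change -0.80, SE 0.167 and adjusted p = 0.0195). That call was kept with 4 of the 8 libraries left out in turn, with an adjusted p of up to 0.0813. Without replicate 4 the log2 fold change was -0.62 (adjusted p = 4.74e-10). Its interaction of -0.70 was not called (adjusted p = 0.0608), and it was called without replicate 4 at -0.53 (adjusted p = 0.0188). The ratio of IRS1 to IRS2 per kilobase was 20.8 ± 0.518 in SCR (-dox), 19.9 ± 2.95 in SCR (+dox), 5.40 ± 0.287 in NAA40-KD (-dox) and 9.37 ± 0.991 in NAA40-KD (+dox). Replicate 4 did not stand apart on this ratio: the 4 NAA40-KD (-dox) libraries ran from 5.13 to 5.67, below all 12 others. The ratio of the 2 substrates is a description, with no test.

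**Figure D3:**
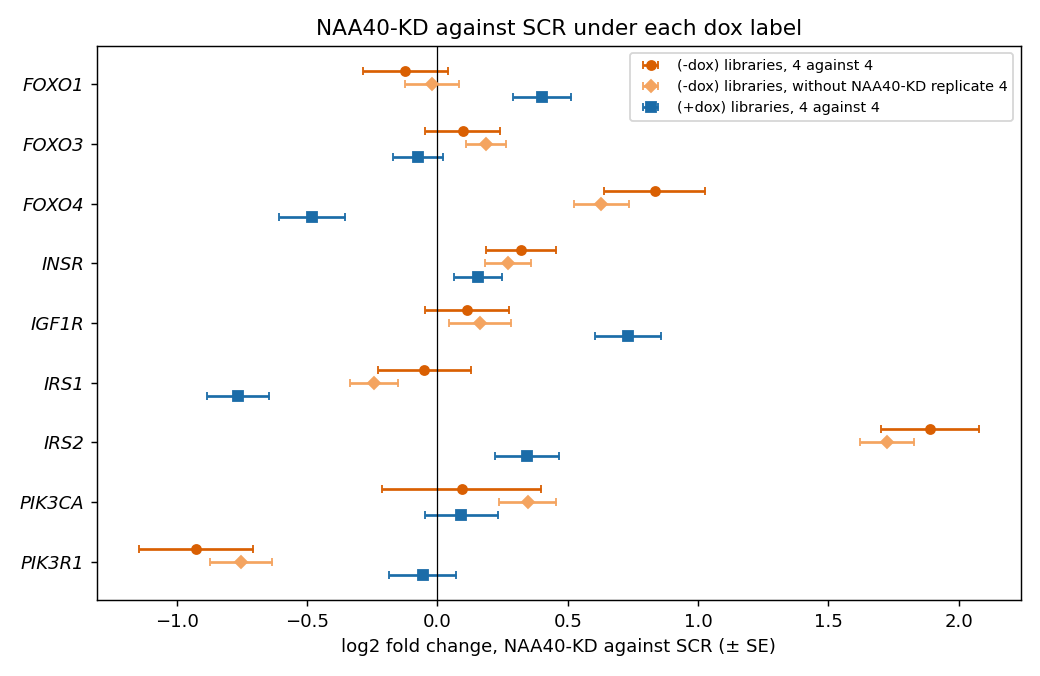
Log2 fold change of NAA40-KD against SCR for the 9 genes, with its SE, in the (-dox) libraries (circles), in the (-dox) libraries without NAA40-KD replicate 4 (diamonds) and in the (+dox) libraries (squares). IRS2 lies farthest right under (-dox), at 1.89, FOXO4 lies on opposite sides under the labels (0.83 and -0.48), and PIK3R1 lies left under (-dox) alone (-0.93 against -0.06).

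The PI3K subunits differed in the regulatory gene. PIK3R1 (ENSG00000145675, 5:68215720-68301821, plus strand) encodes p85alpha, which binds phosphorylated IRS proteins and both stabilises and restrains the catalytic subunit. It held 13.6, 13.998, 15.8 and 7.58 CPM in the libraries labelled NAA40-KD (-dox), where replicate 4 was the lowest. It held 24.4, 21.2, 27.5 and 24.1 CPM in SCR (-dox), 24.6, 25.6, 17.1 and 18.9 in SCR (+dox), and 21.2, 21.6, 21.6 and 18.5 in NAA40-KD (+dox). All 4 NAA40-KD (-dox) libraries were below the 12 others.

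PIK3R1 had a log2 fold change under (-dox) of -0.93 (SE 0.2195 and adjusted p = 0.0383), and without replicate 4 it was -0.76 (SE 0.119 and adjusted p = 0.000185). With any other library left out it was not called, at an adjusted p of up to 0.125. Under (+dox) the groups overlapped, with a log2 fold change of -0.06 (adjusted p = 0.782). The interaction was 0.87 (SE 0.265 and adjusted p = 0.0474), and 0.69 without replicate 4 (adjusted p = 0.00757).

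PIK3CA (ENSG00000121879, 3:179148114-179240093, plus strand), which encodes the catalytic subunit p110alpha, held 26.7 to 33.8 CPM in SCR (-dox), 23.0 to 39.2 in SCR (+dox) and 28.9 to 35.4 in NAA40-KD (+dox). In NAA40-KD (-dox) it held 35.6, 43.4, 40.1 and 13.4 CPM, so 3 libraries lay above all of SCR (-dox) and replicate 4 below every other library. Its log2 fold change of 0.09 under (-dox) was not called (SE 0.306 and adjusted p = 0.889), and without replicate 4 it was 0.35 (SE 0.108 and adjusted p = 0.0202). Under (+dox) it was 0.09 (adjusted p = 0.673). The gene shares 3403 exon bases with KCNMB3 on the opposite strand and has a known pseudogene copy, so its counts carry that uncertainty. The ratio of PIK3R1 to PIK3CA per kilobase was 0.689 ± 0.0462 in SCR (-dox), 0.650 ± 0.0794 in SCR (+dox), 0.366 ± 0.0918 in NAA40-KD (-dox) and 0.581 ± 0.0539 in NAA40-KD (+dox), with no test.

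Among the FOXO factors, FOXO4 moved with the groups and in opposite directions under the labels. FOXO4 (ENSG00000184481, X:71096197-71103535, plus strand) held 24.1, 22.2, 25.0 and 37.3 CPM in the NAA40-KD (-dox) libraries and 15.3, 16.4, 15.2 and 14.5 in SCR (-dox). It held 12.7, 13.2, 11.8 and 10.0 CPM in NAA40-KD (+dox) and 19.3, 17.5, 14.5 and 15.3 in SCR (+dox). The groups did not overlap under either label, and NAA40-KD was the higher line under (-dox) and the lower under (+dox). Replicate 4 was again the highest library.

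FOXO4 had under (-dox) a log2 fold change of 0.83 (SE 0.195 and adjusted p = 0.0362), which was 0.63 without replicate 4 (SE 0.106 and adjusted p = 0.000318). With any other library left out its call under (-dox) was lost, at an adjusted p of up to 0.123. Under (+dox) the log2 fold change was -0.48 (SE 0.127 and adjusted p = 0.0102), called with 7 of the 8 libraries left out in turn, with the adjusted p reaching 0.0544 in the remaining fit. Within NAA40-KD, FOXO4 was lower in the (+dox) libraries (log2 fold change -1.19, SE 0.196 and adjusted p = 0.00862), with -1.002 without replicate 4 (adjusted p = 1.52e-08). The interaction was -1.30 (SE 0.227 and adjusted p = 0.00222), and -1.12 without replicate 4 (adjusted p = 3.15e-05).

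FOXO1 (ENSG00000150907, 13:40469953-40666597, minus strand), the FOXO factor best known from liver glucose metabolism, was higher in NAA40-KD (+dox), at 31.7, 32.8, 31.8 and 34.3 CPM against 28.6, 25.5, 19.8 and 24.9 in SCR (+dox). The groups did not overlap (log2 fold change 0.40, SE 0.111 and adjusted p = 0.0131). In SCR (-dox) it held 25.6 to 27.3 CPM and in NAA40-KD (-dox) 18.4 to 28.5, with a log2 fold change of -0.12 (adjusted p = 0.689). Within NAA40-KD and in the interaction FOXO1 was not called over all libraries. Without replicate 4 it was called in both, at 0.31 (adjusted p = 0.00254) and 0.42 (adjusted p = 0.0438). Of its exon bases, 269 are shared with LINC00598 on the same strand, and its near-identical copy FOXO1B held 0 to 4 counts.

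FOXO3 (ENSG00000118689, 6:108559835-108684774, plus strand), the most abundant of the 3 FOXO genes per kilobase in each group, was called in none of the comparisons over all libraries. It held 79.9 to 82.7 CPM in SCR (-dox), 74.4 to 91.9 in SCR (+dox) and 70.3 to 85.1 in NAA40-KD (+dox). In NAA40-KD (-dox) it held 90.8, 91.6, 95.4 and 68.3 CPM, so the first 3 lay above all of SCR (-dox) and replicate 4 below them. The log2 fold change under (-dox) was 0.10 (SE 0.144 and adjusted p = 0.726), and 0.18 without replicate 4 (adjusted p = 0.0723). Within NAA40-KD, FOXO3 was lower in the (+dox) libraries without replicate 4, and called there (log2 fold change -0.26, adjusted p = 0.00194). A near-identical copy, FOXO3B, held 10 to 56 counts against 830 to 1308 of FOXO3, and reads of one could be counted in the other. Of the summed level of the 3 FOXO genes per kilobase, FOXO4 took 23.1% ± 0.884 in SCR (-dox), 24.9% ± 0.83 in SCR (+dox), 34.3% ± 9.04 in NAA40-KD (-dox) and 18.4% ± 1.23 in NAA40-KD (+dox). In NAA40-KD (-dox) that share ran from 28.6% to 47.8%, the highest in replicate 4.

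Around the 9 genes, a list of 104 other genes of the pathway in 8 roles was read in the same fits. Of these, 100 had a row in the table and 86 passed the filter on low counts. The list and its roles, like the 9 genes, were chosen with earlier results of these data known. Under (-dox), 5 of the 86 were called, 2 higher and 3 lower, or 5.81% against 6.42% of all genes tested. The median log2 fold change of the 86 was 0.03, against 0.04 over all genes tested. Without NAA40-KD (-dox) replicate 4, 34 of the 86 were called, 18 higher and 16 lower, where 36.5% of all genes were. Both shares lay near their background. With any other library left out, 0 were called, in fits whose share of all genes called is not given here.

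The 5 genes called under (-dox) were 1 kinase, 2 FOXO regulators and 2 FOXO target genes. SFN, the epithelial 14-3-3 sigma, was higher by 1.19 on the log2 scale (SE 0.288 and adjusted p = 0.0402), with 465, 415, 510.5 and 1025 CPM in NAA40-KD (-dox) against 216 to 288 in SCR (-dox). Replicate 4 held more than any other library, and without it the log2 fold change was 0.79 (adjusted p = 4.42e-05). GABARAPL1, an ATG8-family protein of autophagosomes, was higher as well (log2 fold change 0.60, SE 0.139 and adjusted p = 0.0337), at 86.9 to 110.2 CPM against 59.4 to 69.5. MAP1LC3B, the related LC3B, was lower (log2 fold change -0.996, SE 0.253 and adjusted p = 0.0478). SKP2, the F-box protein that targets FOXO1 for degradation, had a log2 fold change of -0.66 (adjusted p = 0.0473). SGK1, a kinase that phosphorylates FOXO factors much as AKT does, had a log2 fold change of -0.83 (adjusted p = 0.0355) at low levels, 2.24 to 2.85 CPM against 4.21 to 5.63. Without replicate 4 the log2 fold changes were 0.65 for GABARAPL1, -0.84 for MAP1LC3B, -0.59 for SKP2 and -0.86 for SGK1, and all 4 were called. Each of the 5 genes lost its call with any other library left out.

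**Figure D4:**
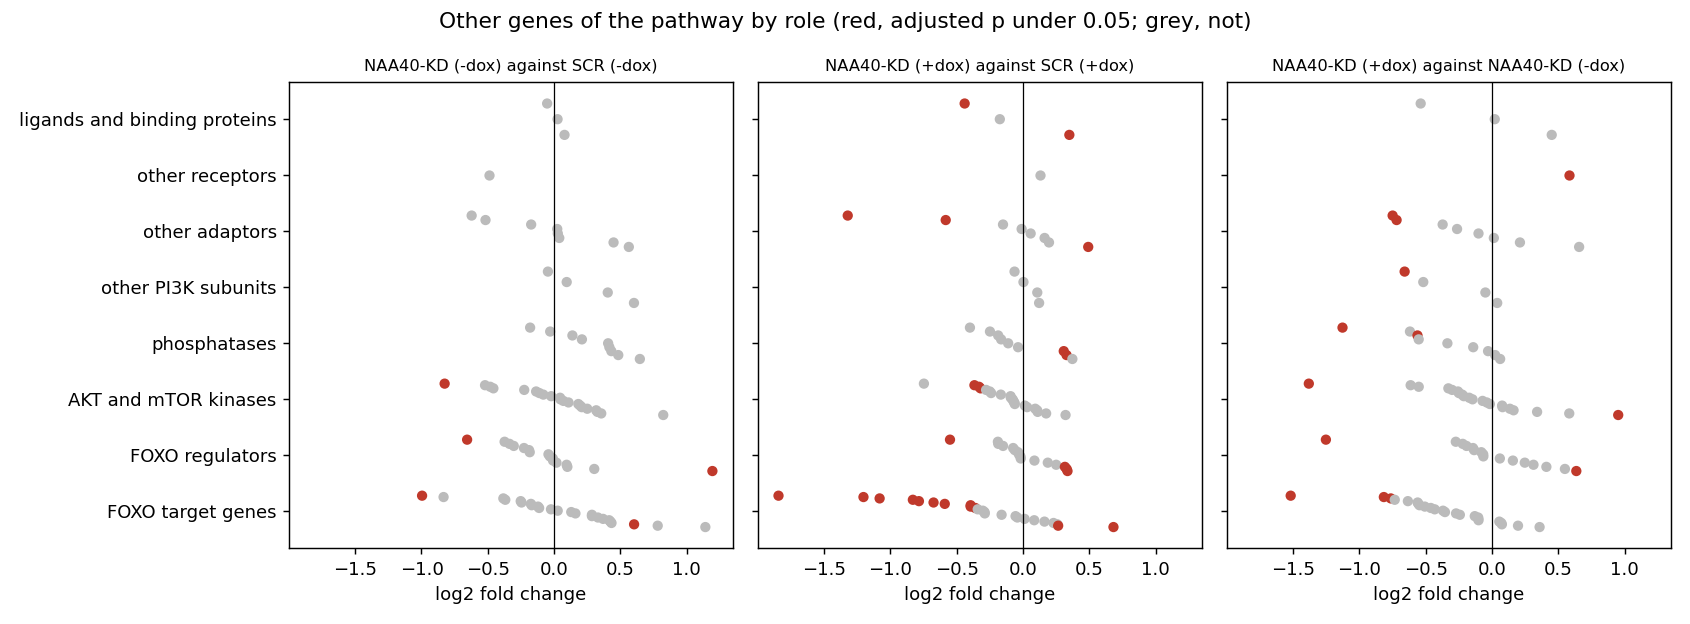
Log2 fold change of the 86 other pathway genes tested, by role, in 3 comparisons (red, adjusted p under 0.05). Under (+dox) 26 of 86 are called and FOXO target genes spread to the left, down to MAP1LC3B at -1.84.

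Under (+dox), 26 of the 86 were called, 9 higher and 17 lower, or 30.2% against 24.5% of all genes tested. The median log2 fold change of the 86 was -0.07, against -0.004 over all genes tested. Leaving out 1 library in turn gave 18 to 28 calls, and the share of all genes called in those fits is not given here. By role, 2 of 3 ligands and binding proteins, 0 of 1 other receptor, 3 of 8 adaptors, 0 of 4 other PI3K subunits, 2 of 9 phosphatases, 3 of 21 AKT and mTOR kinases, 4 of 16 FOXO regulators and 12 of 24 FOXO target genes were called.

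Among the adaptors GRB10, which binds the insulin receptor and restrains it, was lower in NAA40-KD (+dox): 23.6, 18.7, 15.2 and 18.6 CPM against 46.4, 48.4, 43.5 and 51.4 in SCR (+dox). GRB10 thus had -1.32 on the log2 scale (SE 0.119 and adjusted p = 4.30e-07). SHC1, an adaptor towards RAS, was lower by 0.58 (log2 fold change -0.58, SE 0.0837 and adjusted p = 7.48e-05). GRB14, a relative of GRB10, was higher (0.49, adjusted p = 0.00726). The ligand gene IGF2 was lower (log2 fold change -0.44, adjusted p = 0.0134) and the binding protein IGFBP6 higher (0.35, adjusted p = 0.0479). The groups of both genes overlapped, and the call was kept with 6 of the 8 libraries left out in turn for IGF2 and with 1 of 8 for IGFBP6.

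Among the phosphatases PHLPP1, which acts on AKT, was higher (log2 fold change 0.33, adjusted p = 0.0254). The 3 kinase genes called were lower: MLST8, a subunit of both mTOR complexes (log2 fold change -0.37, adjusted p = 0.0434), RPS6KB1, the S6 kinase (-0.33, adjusted p = 0.0192), and AKT1 (-0.32, adjusted p = 0.0162). With each of the 8 libraries left out in turn the call was kept 5 times for PHLPP1, 2 for MLST8, 4 for RPS6KB1 and 6 for AKT1, and without SCR (+dox) replicate 3 MLST8 moved to -0.23 (adjusted p = 0.127). Of the FOXO regulators, the nuclear export receptor XPO1 (0.34, adjusted p = 0.0138), the kinase STK4 (0.33, adjusted p = 0.0171) and the deubiquitinase USP7 (0.32, adjusted p = 0.0104) were higher. The 14-3-3 gene YWHAB was lower (-0.55, adjusted p = 0.000591). STK4 kept its call in 5 of the 8 fits without 1 library, and the other 3 kept theirs in all 8. Over all 16 alternative fits, XPO1, USP7 and YWHAB were each called in 15 and STK4 in 12.

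The FOXO target genes had the highest share of calls among roles with over 3 genes tested, 12 of 24 under (+dox), with 2 higher and 10 lower, where 24.5% of all genes were called (10.9% higher and 13.7% lower). Their median log2 fold change was -0.30, against -0.004 over all genes tested. As the list was chosen with earlier results known, this share and median are no independent support. MAP1LC3B had the smallest p of all 13869 genes, with 85.2, 91.5, 86.7 and 86.5 CPM in NAA40-KD (+dox) against 316, 329, 332 and 279 in SCR (+dox). On the log2 scale it was lower, at -1.84 (SE 0.0859 and adjusted p = 2.28e-10). A near-identical gene copy of it exists, so reads of the copy could be counted with it. GADD45A, a DNA damage response gene (log2 fold change -1.20, SE 0.0961 and adjusted p = 9.66e-08), and KLF6, a zinc finger factor (-1.08, SE 0.121 and adjusted p = 5.47e-06), were lower, and their groups did not overlap. CCND1, the cyclin D1 gene that FOXO factors are known to repress, was higher, at 773 to 866 CPM against 447 to 548 (0.68, SE 0.0874 and adjusted p = 2.28e-05). BCL2L11, which encodes the pro-apoptotic BIM, was higher too (0.26, adjusted p = 0.0485), and this call was lost with 7 of the 8 libraries left out. The 10 lower calls include genes of autophagy, DNA damage response, metabolism (PDK4, log2 fold change -0.79) and apoptosis (BBC3, -0.68). PDK4 and BBC3 lie outside the naming rule here and were added after their values were seen.

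**Figure D5:**
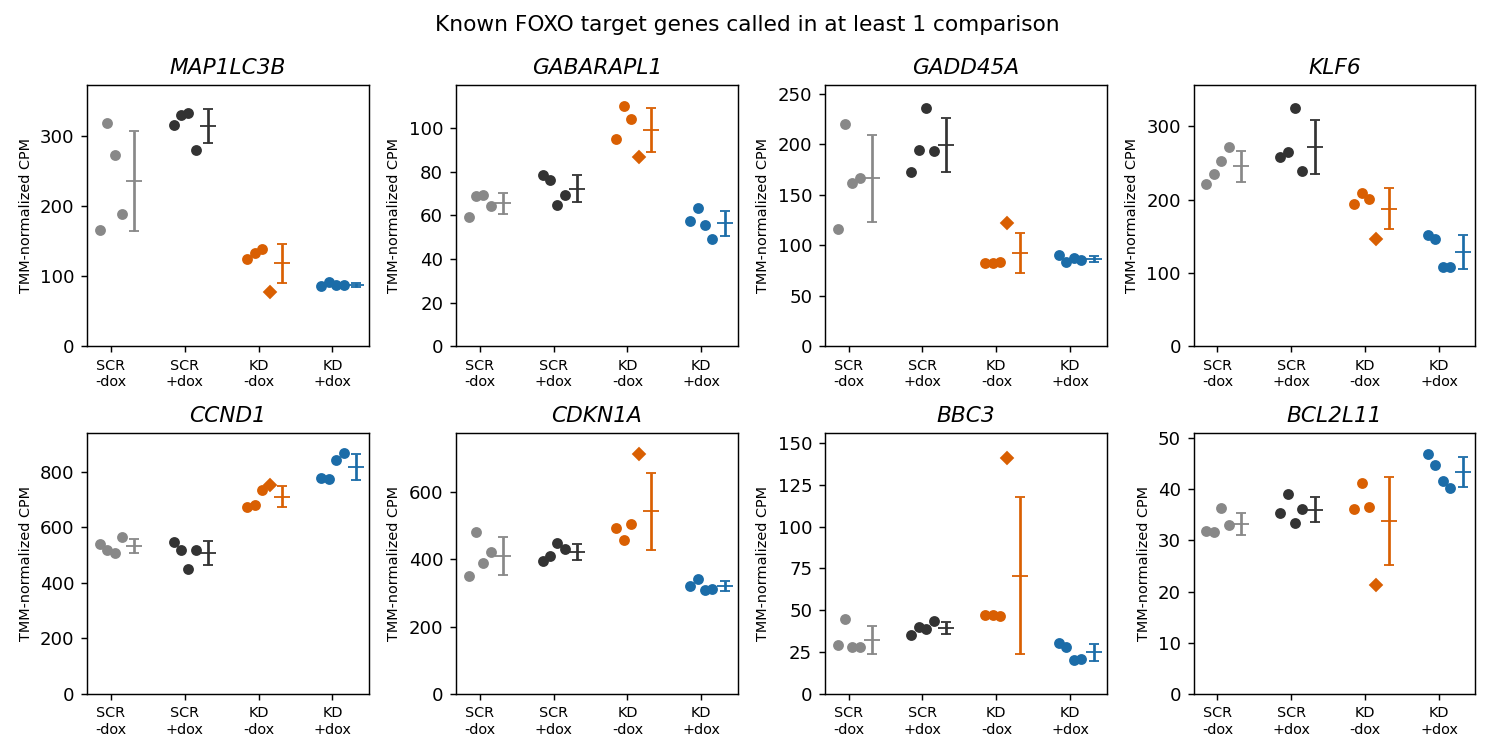
TMM-normalized CPM of the 8 FOXO target genes that the naming rule picked, in each of the 16 libraries (diamond, NAA40-KD (-dox) replicate 4), with the mean and SD of each group. MAP1LC3B, KLF6 and GADD45A have lower means in both NAA40-KD groups than in their SCR groups. CCND1 and BCL2L11 have higher means in both, BCL2L11 by little under (-dox) (33.8 against 33.2 CPM). The means of CDKN1A, GABARAPL1 and BBC3 lie highest in NAA40-KD (-dox) and lowest in NAA40-KD (+dox).

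In SCR, where the 2 dox labels differed in none of the 86 pathway genes by edgeR (2 at an unadjusted p under 0.05; 0 by DESeq2 and limma-voom), the median log2 fold change was -0.03. Between NAA40-KD (+dox) and NAA40-KD (-dox), 13 of the 86 were called, 3 higher and 10 lower, or 15.1% against 10.2% of all genes. Without replicate 4, 59 of the 86 were called, 17 higher and 42 lower, where 52.4% of all genes were. Leaving out any (+dox) library left 3 or 4 called, and any of the other (-dox) libraries 9 or 10. For these fits too, the share of all genes called is not given here. Higher in the (+dox) libraries were DEPTOR, an inhibitory subunit of the mTOR complexes (log2 fold change 0.95, SE 0.155 and adjusted p = 0.00785), SKP2 (0.64, adjusted p = 0.0183) and the receptor IGF2R (0.58, adjusted p = 0.0147). IGF2R, which clears IGF2 from the cell surface, held 147 to 163 CPM in NAA40-KD (+dox) and 98.6 to 109.8 in NAA40-KD (-dox).

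Lower in the (+dox) libraries were 3 FOXO target genes: the p53-responsive BBC3, which encodes PUMA (log2 fold change -1.52, SE 0.393 and adjusted p = 0.0420), GABARAPL1 (-0.82, adjusted p = 0.00821) and CDKN1A, which encodes p21 (-0.76, adjusted p = 0.0179). BBC3 held 141 CPM in NAA40-KD (-dox) replicate 4 and 46.7 to 47.4 in the other 3, and without replicate 4 its log2 fold change was -0.94 (adjusted p = 2.30e-06). SFN was lower as well (-1.25, adjusted p = 0.0239). Also lower were 5 genes upstream of AKT: GRB10 had a log2 fold change of -0.75 (adjusted p = 0.0168), GAB2, a docking adaptor, -0.72 (adjusted p = 0.0439), and PIK3CD, a catalytic PI3K subunit, -0.66 (adjusted p = 0.0490). PTPN1, the phosphatase PTP1B that acts on the insulin receptor, had -0.56 (adjusted p = 0.0153), and PIK3IP1, an inhibitor of PI3K listed with the phosphatases, -1.13 (adjusted p = 0.0214). Without replicate 4 all of these named genes stayed called, with log2 fold changes of -0.87 for SFN, -0.88 for GABARAPL1, -0.60 for CDKN1A, -0.76 for GRB10, -0.57 for GAB2, -0.47 for PIK3CD, -0.57 for PTPN1, -1.03 for PIK3IP1, 0.93 for DEPTOR, 0.55 for SKP2 and 0.61 for IGF2R. With each of the 8 libraries left out in turn, DEPTOR and GABARAPL1 kept their call in all 8 fits, and the others in 1 to 5.

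The interaction was called for 11 of the 86, 3 higher and 8 lower, or 12.8% against 9.22% of all genes, and without replicate 4 for 22 of the 86, where 24.2% of all genes were called, a share near that background. Of the FOXO target genes, 4 of 24 were called, all lower, where the median was -0.35 against -0.05 over all genes tested. GABARAPL1 was one of them: NAA40-KD was the higher line under (-dox), by 0.60, and the lower under (+dox), by 0.36 (log2 fold change -0.36, adjusted p = 0.0121). Its interaction was -0.96 (SE 0.164 and adjusted p = 0.00202), and -1.02 without replicate 4. The others were BBC3, CDKN1A and KLF6, and KLF6 (-0.69, adjusted p = 0.0479) lies outside the naming rule and was added after its value was seen.

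Across the 16 libraries, the genes whose levels ran most like IRS2 among 14391 were GOLGA2 (Pearson r = 0.990), FAM222B (0.979), TESK2 (0.977), HABP4 (0.976) and CHST6 (0.972). GOLGA2 averaged 282 CPM in NAA40-KD (-dox) and 112 to 129 CPM in the other groups. Its r without replicate 4 was 0.986. Within groups, after the group means were taken out, it was 0.832 over all 16 libraries, replicate 4 included. For PIK3R1 they were CKAP2L (0.967), KPNB1 (0.966), DPP4 (0.965), PLCL2 (0.964) and ZNF518B (0.963). Without replicate 4 their r to PIK3R1 ran from 0.913 for ZNF518B to 0.935 for DPP4. DPP4 averaged 14.9 CPM in NAA40-KD (-dox) and 25.1 to 26.6 CPM elsewhere. These values describe 16 libraries that share groups and a library that stands apart, with no test, and say nothing of a shared function.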

How the data were processed

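RNA from 16 HCT116 samples was sequenced by the authors, who deposited whole-number read counts per gene, not normalized. The sources name STAR and featureCounts, hg38 and a mouse build, though all 33937 gene IDs are human. Symbols, positions and exon lengths came from GENCODE 29 (33811 IDs found). Groups followed the titles and treatment labels. The 9 genes and the pathway and marker lists were chosen with earlier results of these data known.

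edgeR 4.0.16 (R 4.3.3) fitted quasi-likelihood models to the 8 libraries of each comparison, and to all 16 for the interaction, with TMM scaling, genes above 1 CPM in at least 4 libraries and Benjamini-Hochberg adjustment over all genes tested. A gene was called at an adjusted p under 0.05. DESeq2 1.42.0, limma-voom (limma 3.58.1), other scalings and filters, an absolute log2 fold change above 1, a replicate block and each library left out were tried. Levels are TMM-scaled CPM, divided by the union of exons where given per kilobase. The 9 genes held 92 to 7469 counts a library. All 24 pairs of libraries within groups differed by more than sampling noise (chi-square per degree of freedom 1.79 or more). The models were tested on simulated data.

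Named were the 9 genes, NAA40, up to 3 called pathway genes per role, direction and comparison by size of change, and the 5 genes most like the 2 of the 9 with the largest log2 fold change under (-dox). Some genes of the pathway list count in its totals but are not reported here by name.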

Additional observations from a re-analysis of the deposited data

Results flagged for a closer look

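In 4 of 40 groups of 4 libraries tested over the 9 genes and NAA40, 1 library lay apart from the other 3 beyond Dixon's 95% critical value, where chance gives about 1 in 20. Of these, 3 were the library labelled NAA40-KD (-dox) replicate 4: 68.3 CPM of FOXO3 against 90.8 for the nearest library, 615 CPM of IRS1 against 419.7, and 89.3 CPM of IRS2 against 63.7. The fourth was NAA40-KD (+dox) replicate 4 for PIK3R1, at 18.5 CPM against 21.2.

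The difference between the lines changed with the dox label, by an interaction term tested with edgeR over all genes, in 3 of the 9 genes. IRS2 changed by -1.53 on the log2 scale (adjusted p = 0.000457), FOXO4 by -1.30 (adjusted p = 0.00222) and PIK3R1 by 0.87 (adjusted p = 0.0474). PIK3R1 was called with 4 of 16 libraries left out in turn, and IRS2 and FOXO4 with all 16.

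Of the named pathway genes, the line difference of BBC3 changed by -1.79 (adjusted p = 0.0161), SFN by -1.37 (adjusted p = 0.0136), GABARAPL1 by -0.96 (adjusted p = 0.00202), CDKN1A by -0.80 (adjusted p = 0.0140), GRB10 by -0.79 (adjusted p = 0.0282) and PTPN1 by -0.59 (adjusted p = 0.0103). It changed upward for SKP2 by 0.91 (adjusted p = 0.00648), DEPTOR by 0.85 (adjusted p = 0.0222) and IGF2R by 0.63 (adjusted p = 0.0252). Each of these differences uses NAA40-KD (-dox) replicate 4. Without it the changes were -1.22 for BBC3, -0.99 for SFN, -1.02 for GABARAPL1, -0.65 for CDKN1A, -0.80 for GRB10, -0.60 for PTPN1, 0.83 for SKP2, 0.82 for DEPTOR and 0.65 for IGF2R, and -1.39 for IRS2, -1.12 for FOXO4 and 0.69 for PIK3R1. All of these were called.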

How the results depend on the processing

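IRS2 under (-dox), within NAA40-KD and in the interaction, FOXO4 within NAA40-KD and in the interaction, and IGF1R and IRS1 under (+dox) kept their direction and their adjusted p under 0.05 in every alternative fit. The fold limit of 1 on the log2 scale, which is no other fit, kept the calls of IRS2 and FOXO4 named here and not those of IGF1R and IRS1. Counts of calls depended most on single libraries. With 1 library left out, calls among the 9 genes ran from 1 to 6 under (-dox), from 2 to 9 within NAA40-KD and from 2 to 6 in the interaction, and among the 86 pathway genes from 0 to 34, 3 to 59 and 7 to 22. The upper ends came without NAA40-KD (-dox) replicate 4, where 36.5%, 52.4% and 24.2% of all genes were called in these comparisons, in that order. Requiring an absolute log2 fold change above 1 left 1 of the 9 and 1 of the 86 under (-dox), 0 and 4 under (+dox), 4 of the 86 within NAA40-KD and 3 in the interaction. Of all genes it left 3.47%, 2.15%, 3.99% and 4.49% in these comparisons, in that order. With all 16 libraries in 1 fit the counts were 19 of the 86 under (-dox), 2 of the 9 and 8 of the 86 under (+dox), and 5 of the 9 and 24 of the 86 within NAA40-KD. DESeq2 called 16 of the 86 under (-dox) and 5 of the 9 in the interaction. Without a filter on low counts, 7 of the 86 were called within NAA40-KD and 6 in the interaction. For every other alternative fit, the replicate block included, the share of all genes called is not given here. Counts from those fits therefore describe the fits and are no result about the listed genes. The cause of these moves was not tested.

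Replicate numbers were not used to pair the libraries in the main fits. In no comparison did every same-numbered pair correlate above 0.1 (range -0.387 to 0.216). Within NAA40-KD, replicates 2, 3 and 4 correlated best with their own number, and under (+dox) replicates 3 and 4 did. No replicate did so under (-dox) or in SCR. Whether the numbers mark shared cultures was not tested. Under a replicate block 1 of the 9 and 0 of the 86 were called under (-dox), and 5 of the 86 within NAA40-KD; the other counts moved by no more than 1.5 times.

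Only uncalled log2 fold changes near 0 turned sign. PIK3CA under (-dox) was -0.0269 with limma-voom and -0.013 with the block, within NAA40-KD 0.0532 and 0.0382, and in the interaction -0.00971 with CPM above 1 required in every library. FOXO3 in SCR was -0.0031 with limma-voom, -0.0027 with library size alone and -0.0027 with the block. With 1 library left out, the ranges under (-dox) were -0.0600 to 0.346 for PIK3CA, -0.243 to 0.0249 for IRS1 and -0.00442 to 0.174 for IGF1R. Under (+dox) they were -0.0127 to 0.261 for PIK3CA and -0.156 to 0.035 for PIK3R1. In SCR they were -0.066 to 0.0464 for FOXO3, -0.162 to 0.0383 for IRS1, -0.0962 to 0.0346 for IRS2 and -0.245 to 0.0278 for PIK3CA. PIK3CA ran from -0.334 to 0.0824 within NAA40-KD and from -0.262 to 0.164 in the interaction. The genes of lowest count, PIK3R1 among the 9 and SGK1 and PIK3IP1 in the list, have the least depth behind their values.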
